A study of Mus musculus with 12 samples.

Results

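Expression of 10 genes that mark or govern spermatogonial stem cells and their differentiation was examined in F1 mouse testes. The set was chosen by gene symbol and holds the niche ligand Gdnf, the receptor genes Gfra1 and Ret, the stem and progenitor cell regulators Zbtb16, Id4, Etv5 and Nanos2, and the differentiation genes Kit, Stra8 and Sohlh1. All 10 were found among the 20788 genes of the expression table. After the filter on low counts, 9 of them were among the 16388 genes tested, and Nanos2 was removed.

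The data were RNA-seq libraries of whole testis from 12 F1 samples in 4 groups of 3: lncRNA5251 knockdown, its control 3NC, lncRNA5251 overexpression and its control 5NC. The fathers of the knockdown samples had received a lentivirus with hairpins against the long non-coding RNA lncRNA5251, and those of the 3NC samples the control virus in that LV3 backbone. For overexpression the fathers had received the full-length RNA in an LV5 lentivirus, and for 5NC the LV5 virus without it. Every group was thus a virus group, and no uninjected line was analysed here. In the study's methods the virus was injected into the testes of the F0 fathers, which were mated with normal females, and the male offspring were sampled at 8 weeks of age. The series design text instead describes F1 testes as the transfected tissue, so the route of exposure differs between the sources. The strain is written IRC mouse in the labels and ICR in the study's methods. The labels name total RNA as the library input, whereas the methods describe oligo(dT) enrichment. Whether the replicates of a group were separate animals or litters is not stated in the labels, so the p-values cover the spread among these libraries, which may be technical in part.

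Spermatogonial stem cells sit on the basement membrane of the seminiferous tubule. Sertoli and peritubular cells secrete GDNF, which binds GFRA1 and signals through the RET tyrosine kinase on undifferentiated spermatogonia, where it maintains transcription factors of self-renewal such as ETV5 and ID4. Retinoic acid then drives the change to differentiating spermatogonia, which gain the receptor KIT, and induces STRA8, which is needed for entry into meiosis.

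Library totals ran from 12719699 to 15771655 estimated reads with a median of 15273158, so the deepest library held 1.24 times the reads of the shallowest. The level of lncRNA5251 itself was not analysed here, and the knockdown and overexpression labels were not checked through it. Markers of Sertoli, Leydig, peritubular myoid, endothelial, round spermatid and elongating spermatid cells were detected in every list, with none of their genes at 0 in all libraries. Summed macrophage markers, 9 genes, reached 454 CPM (counts scaled to library size) in 3NC replicate 2 and 556 CPM in knockdown replicate 1, against 102 CPM in the lowest library. Summed epididymis markers, 5 genes, lay at 11.3 to 250 CPM in 5NC and 28.1 to 65.0 CPM in 3NC, against 0.332 to 14.3 CPM in knockdown and 0.263 to 0.476 CPM in overexpression.

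The levels of the 10 genes were first set in order. Between genes, levels were compared as FPKM, a measure of reads scaled by the authors for gene length and sequencing depth. Id4, an inhibitor of basic helix-loop-helix factors that marks stem cells, had the highest level, with a median of 17.9 FPKM and a range of 14.4 to 21.7 FPKM over the 12 libraries. Stra8 came next at a median of 7.31 FPKM, then Kit at 5.39 FPKM, Etv5 at 5.12 FPKM, Gfra1 at 2.96 FPKM and Sohlh1 at 2.90 FPKM. Zbtb16 at 0.785 FPKM, Gdnf at 0.450 FPKM and Ret at 0.350 FPKM formed the lower end, and Nanos2 was at 0.05 FPKM.

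Some neighbours in this order had overlapping ranges over the 12 libraries. Stra8 was above Kit in 11 of 12 libraries and Kit above Etv5 in 7 of 12, and the ranges of both pairs overlapped. Gfra1 was above Sohlh1 in 7 of 12 libraries. Zbtb16 was above Gdnf in 11 of 12 libraries again with overlapping ranges. Gdnf was above Ret within each of the 12 libraries, although their ranges across libraries overlapped. The ranges of Id4 and Stra8, of Etv5 and Gfra1, and of Sohlh1 and Zbtb16 did not overlap. The gene length implied by the reads and the FPKM differed between libraries by up to 1.26 times for Gdnf and 1.25 times for Zbtb16, which limits the FPKM of these genes.

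**Figure D1:**
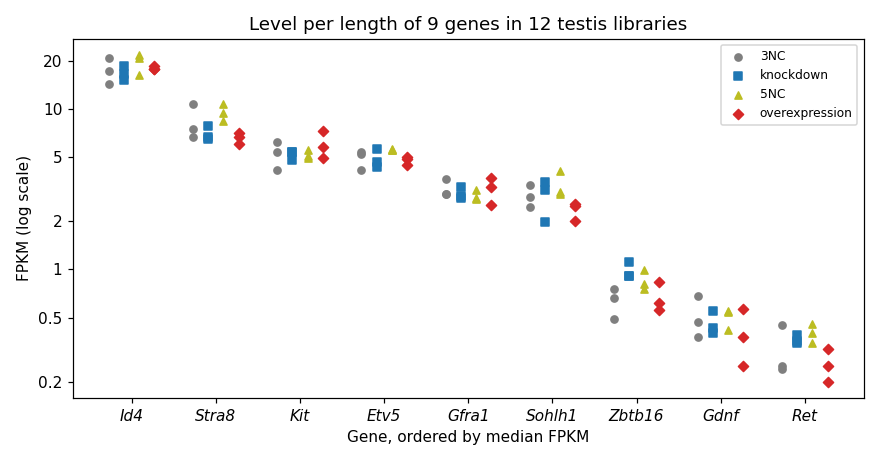
FPKM (log axis) of 9 genes, ordered by median, with a point for each of the 12 libraries and a symbol for each group. Id4 lies above all other genes at 14.4 to 21.7 FPKM, and Zbtb16, Gdnf and Ret lie at 0.2 to 1.12 FPKM.

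For a single gene between libraries, levels were compared as CPM with TMM scaling, and groups were tested with edgeR's quasi-likelihood test with Benjamini-Hochberg adjustment over all 16388 genes. None of the 9 genes tested passed an adjusted p of 0.05 in any comparison. The share of all genes called was 0% in knockdown against 3NC, 0.311% in overexpression against 5NC (34 genes higher and 17 lower), 0.128% in 5NC against 3NC and 0.0244% for the difference between the 2 lncRNA effects. At an unadjusted p under 0.05 the counts were 0 of 9 in knockdown against 3NC (5.64% of all genes), 2 of 9 in overexpression against 5NC (11.9% of all genes), 0 of 9 in 5NC against 3NC (10.8%) and 1 of 9 for the difference of effects (4.63%). Each of these counts was less than 1 gene away from what the share of all genes would give for 9 genes. DESeq2 called 0 of 9 in each of these comparisons as well. In whole testis, fewer cells of a type and less RNA per cell cannot be told apart, and this holds for every value given here.

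The niche ligand came first. Gdnf (chr15:7810048-7837580, GRCm38, plus strand) encodes the factor that Sertoli and peritubular myoid cells supply to stem cells. Its level was 1.32, 2.17 and 1.69 CPM in the 3 3NC libraries and 1.96, 1.53 and 1.55 CPM in knockdown. It was 1.93, 1.83 and 1.5 CPM in 5NC and 1.05, 1.27 and 1.90 CPM in overexpression. The groups overlapped in both comparisons, although replicates 1 and 2 of overexpression were the lowest of all 12 libraries. The log2 fold change was -0.04 (SE 0.28, edgeR adjusted p = 0.975) for knockdown against 3NC. For overexpression against 5NC it was -0.33 (SE 0.29, adjusted p = 0.721), with a 95% interval of -0.96 to 0.31. With 1 library left out at a time it ran from -0.59 (without overexpression replicate 3) to -0.15 (without overexpression replicate 1). These values rest on 16 to 35 reads per library. The study reported more GDNF protein in the F1 knockdown testes by western blotting, a measure of protein and not of RNA. Summed Sertoli markers, 10 genes, were 1083 to 1456 CPM in 3NC, 1207 to 1244 in knockdown, 1017 to 1136 in 5NC and 1030 to 1269 in overexpression, and summed peritubular myoid markers, 5 genes, were 63.6 to 98.2, 74.5 to 80.5, 82.0 to 108 and 76.9 to 86.9 CPM in the same order. Of the Sertoli sum, Clu alone held 508 to 709 CPM over the libraries, and Ctsl reached 444 CPM in 3NC replicate 2. In knockdown against 3NC, 6 of the 10 Sertoli markers were negative and 4 positive. The smallest p there was that of Wt1, at -0.46 (SE 0.15, edgeR adjusted p = 0.764). The part of Sertoli and peritubular myoid cells in the Gdnf values was not tested.

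The receptor genes were considered next. Gfra1 (chr19:58235581-58455946, minus strand) encodes the GPI-anchored co-receptor that binds GDNF and marks the most primitive spermatogonia. It measured 13.1, 12.4 and 16.7 CPM in 3NC and 11.9, 12.8 and 14.5 CPM in knockdown. In 5NC it was 11.9, 11.7 and 13.3 CPM, and in overexpression 11.1, 14.2 and 16.2 CPM. All groups overlapped. Fitted log2 fold changes were -0.11 (SE 0.16, adjusted p = 0.872) for knockdown against 3NC and 0.17 (SE 0.17, adjusted p = 0.766) for overexpression against 5NC, where the 95% interval ran from -0.19 to 0.53. The latter value was 0.05 without overexpression replicate 3 and 0.31 without overexpression replicate 1, the ends of its range over the libraries left out.

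Ret (chr6:118151748-118197744) encodes the tyrosine kinase that carries the GDNF signal into the cell. It measured 1.85, 2.92 and 1.82 CPM in 3NC and 2.72, 2.59 and 2.57 CPM in knockdown. In 3NC, replicate 2 stood above the other 2 libraries and above all 3 knockdown libraries, and it is one of the libraries with high macrophage markers. In 5NC the level was 3.24, 2.53 and 2.5 CPM, and in overexpression 1.45, 1.8 and 2.30 CPM. All 3 overexpression libraries were below all 3 5NC libraries.

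The log2 fold change of Ret was 0.25 (SE 0.25, adjusted p = 0.793) for knockdown against 3NC, and it ran from 0.15 (without 3NC replicate 1 or 3) to 0.51 (without 3NC replicate 2) with each library left out. For overexpression against 5NC it was -0.58 (SE 0.26, adjusted p = 0.401) with a 95% interval of -1.15 to -0.02, which corresponds to 0.668 times the control level. Leaving out 1 library at a time placed this value between -0.76 and -0.43, with adjusted p from 0.267 to 0.878. The 5NC and overexpression groups held 123 and 78 reads of Ret in all.

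The 4 regulators of the stem and progenitor state followed the receptors. Zbtb16 (chr9:48651797-48836225) encodes PLZF, a zinc finger repressor needed to keep the stem cell pool. Its level was 5.82, 4.23 and 3.11 CPM in 3NC and 5.69, 6.11 and 7.83 CPM in knockdown. In this comparison 2 of 3 knockdown libraries were above all controls, and the third lay just under 3NC replicate 1. In 5NC it was 6.93, 5.00 and 4.94 CPM, and in overexpression 4.08, 6.19 and 4.2 CPM, and these groups overlapped.

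Zbtb16 had the largest fitted difference of the 9 genes in knockdown against 3NC, a log2 fold change of 0.58 (SE 0.27, adjusted p = 0.764) with a 95% interval of -0.01 to 1.16. With each library left out in turn it ranged from 0.39 (without 3NC replicate 3) to 0.84 (without 3NC replicate 1), with adjusted p from 0.472 to 0.982. The value between the vector controls was 0.36 (SE 0.27, adjusted p = 0.662), and leaving out single libraries gave 0.17 (without 3NC replicate 3 or 5NC replicate 1) to 0.62 (without 3NC replicate 1). For overexpression against 5NC the log2 fold change was -0.22 (SE 0.27, adjusted p = 0.820), with -0.04 without 5NC replicate 1 and -0.44 without overexpression replicate 2 as the ends of that range.

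Id4 (chr13:48261116-48266028, plus strand) was at 26.7, 20.6 and 33.2 CPM in 3NC and at 24.5, 28.9 and 23.8 CPM in knockdown. It was at 24.6, 32.1 and 31.1 CPM in 5NC and at 28.7, 27.6 and 27.3 CPM in overexpression. The SD was 6.33 CPM in 3NC and 0.754 CPM in overexpression (n = 3 each), and both pairs of groups overlapped. Its log2 fold change was -0.06 (SE 0.16, adjusted p = 0.933) for knockdown and -0.07 (SE 0.16, adjusted p = 0.927) for overexpression against their controls. With 331 to 492 reads per library, the 95% interval for overexpression against 5NC was -0.43 to 0.29, and the value ran from -0.18 (without 5NC replicate 1) to 0.00 (without 5NC replicate 2) over the libraries left out.

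Etv5 (chr16:22381313-22439570, minus strand) encodes an ETS transcription factor that responds to GDNF in stem cells and is also made by Sertoli cells. It measured 19.5, 18.9 and 16.1 CPM in 3NC and 20.4, 16.4 and 17.8 CPM in knockdown, which overlapped. It measured 20.2, 20 and 20.5 CPM in 5NC and 18.9, 18.2 and 16.7 CPM in overexpression. The 5NC libraries were close to each other, with a coefficient of variation of 1.22%, and lay above all 3 libraries of overexpression and of 3NC.

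The size of these Etv5 differences was small. The log2 fold change was -0.00 (SE 0.11, adjusted p = 0.999) for knockdown against 3NC, -0.17 (SE 0.11, adjusted p = 0.615) for overexpression against 5NC (-0.11 without overexpression replicate 3) and 0.15 (SE 0.11, adjusted p = 0.669) for 5NC against 3NC. The last 2 comparisons share the 5NC libraries. Etv5 had the smallest spread over all 12 libraries, with its highest level 1.27 times its lowest, and Zbtb16 the largest, at 2.52 times.

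Nanos2 (chr7:18987524-18988962, plus strand) encodes an RNA-binding protein of the most undifferentiated spermatogonia. It had 8 reads in all 12 libraries together, with 1 in 3NC, 1 in knockdown, 3 in 5NC and 3 in overexpression, and 5 libraries had 0. A library without a read allows a level of up to 3 reads, or 0.186 to 0.238 CPM depending on its depth, for counting error only. The group totals were at or under that floor, so no fold is given.

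The differentiation genes were examined last. Kit (chr5:75574987-75656722, plus strand) encodes the receptor for stem cell factor, which differentiating spermatogonia carry and Leydig and mast cells express too. It measured 27.4, 29.6 and 21.9 CPM in 3NC and 23.8, 27.9 and 28 CPM in knockdown. It measured 24.5, 25.0 and 27.3 CPM in 5NC and 25.3, 29.4 and 37.3 CPM in overexpression. Replicate 3 of overexpression was the highest of all libraries, and the groups overlapped.

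The log2 fold change of Kit was 0.02 (SE 0.15, adjusted p = 0.982) for knockdown against 3NC. It was 0.26 (SE 0.15, adjusted p = 0.542) for overexpression against 5NC and ranged from 0.11 (without overexpression replicate 3) to 0.38 with each library left out in turn. Summed mast cell markers, 7 genes, were 21.3 to 33.3 CPM in 3NC, 22.2 to 26.5 in knockdown, 19.3 to 23.9 in 5NC and 22.7 to 30.8 in overexpression. Almost all of this sum was Hdc, the histamine-forming enzyme (18.8 to 32.4 CPM over the 12 libraries), while Mcpt4, Tpsb2, Cma1, Fcer1a and Ms4a2 were at 0 to 0.27 CPM, at or near 0. Summed Leydig markers, 6 genes, were 1030 to 2007, 1051 to 1393, 1391 to 1893 and 1417 to 1970 CPM in the same order. The Leydig genes did not go one way in knockdown against 3NC: their median log2 fold change was -0.82, with the receptor gene Lhcgr at -1.20 (5.95 ± 1.13 against 13.7 ± 2.97 CPM, no overlap), Cyp17a1 at -1.17 and Star at -0.97, beside Insl3 at 0.25, and none passed (smallest adjusted p = 0.764). The part of these cells in the Kit values was not tested.

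Stra8 (chr6:34920163-34939344, plus strand) is induced by retinoic acid in spermatogonia before meiosis. Its level was 9.0, 13.4 and 10.5 CPM in 3NC and 8.66, 10.7 and 9.05 CPM in knockdown. It was 14.0, 12.2 and 10.9 CPM in 5NC and 9.14, 9.66 and 8.01 CPM in overexpression. All 3 overexpression libraries were below all 3 5NC libraries, while 3NC and knockdown overlapped.

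Mean Stra8 was 8.94 ± 0.841 CPM in overexpression and 12.4 ± 1.55 CPM in 5NC (SD, n = 3), a log2 fold change of -0.47 (SE 0.17, adjusted p = 0.304) with a 95% interval of -0.85 to -0.10. The value lay between -0.56 and -0.38 when each library was left out in turn, and adjusted p between 0.390 and 0.694. For knockdown against 3NC, 9.47 ± 1.08 against 10.9 ± 2.22 CPM, the log2 fold change was -0.21 (SE 0.17, adjusted p = 0.771), with -0.04 without 3NC replicate 2 and -0.32 without 3NC replicate 1, and it was 0.02 without both 3NC replicate 2 and knockdown replicate 1. Stra8 thus had a negative fitted value in both lncRNA comparisons, and the difference between the 2 effects was 0.26 (SE 0.24, adjusted p = 1.0).

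Sohlh1 (chr2:25842995-25847248, minus strand) encodes a basic helix-loop-helix factor of early differentiation that acts upstream of Kit. It measured 3.64, 2.67 and 3.31 CPM in 3NC and 2.97, 2.33 and 3.78 CPM in knockdown, which overlapped. It measured 4.68, 3.38 and 3.29 CPM in 5NC and 2.10, 2.93 and 2.86 CPM in overexpression. All 3 overexpression libraries were again below all 3 5NC libraries. The log2 fold change was -0.08 (SE 0.25, adjusted p = 0.938) for knockdown against 3NC and -0.53 (SE 0.25, adjusted p = 0.436) for overexpression against 5NC, with a 95% interval of -1.07 to 0.02. The last value ranged from -0.62 to -0.34 with each library left out in turn, the latter without 5NC replicate 1.

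**Figure D2:**
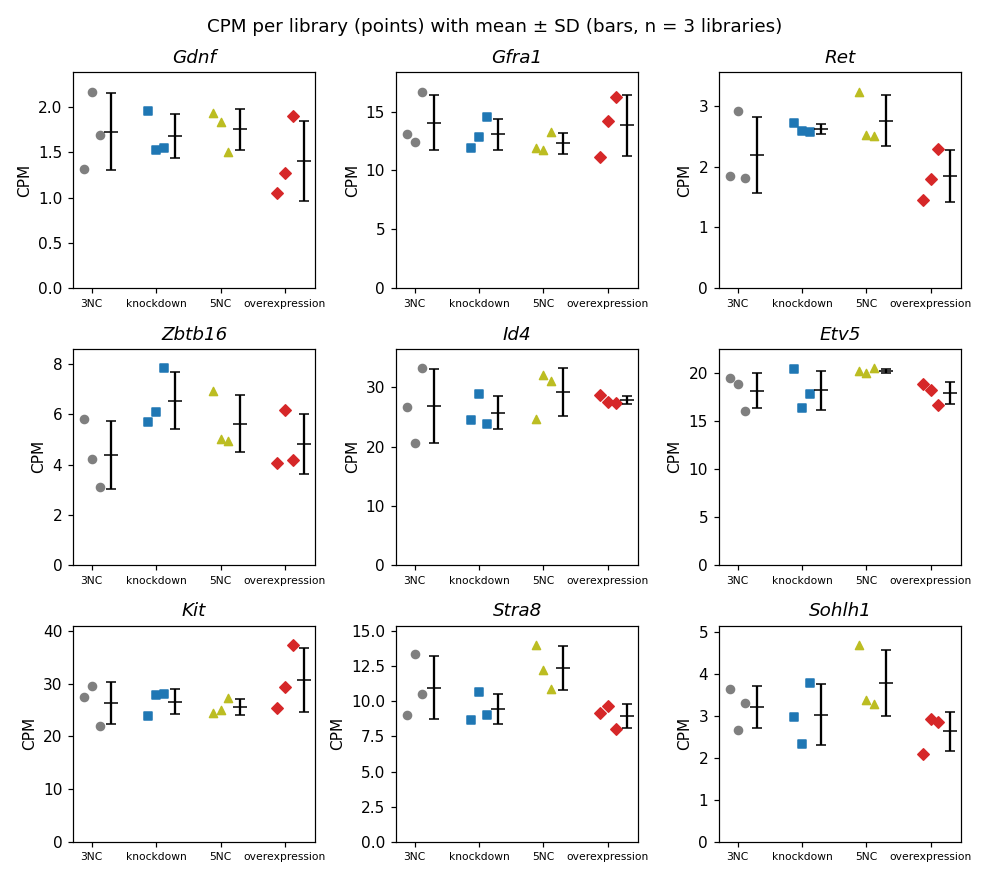
CPM of 9 genes in each library (points) of the 4 groups, with the group mean and SD (bars, n = 3) beside them and each axis starting at 0. The overexpression points of Ret, Etv5, Stra8 and Sohlh1 all lie below the 5NC points, and no gene separates knockdown from 3NC.

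Across the set, 4 of 9 genes (Ret, Etv5, Stra8 and Sohlh1) had all 3 overexpression libraries below all 3 5NC libraries, which 10% of all genes tested had, and 0 of 9 had them all above (11.3% of all genes). In knockdown against 3NC, 0 of 9 were wholly lower (6.36% of all genes) and 0 of 9 wholly higher (4.95%). Between the vector controls, Etv5 alone was wholly higher in 5NC (6.8% of all genes) and no gene wholly lower (6.18%). The median log2 fold change of the 9 genes was -0.22 in overexpression against 5NC, with 7 of 9 negative, while the median of all genes was -0.01. It was -0.04 in knockdown against 3NC, with 6 of 9 negative (Etv5 among them at -0.00), where all genes had -0.02. For 5NC against 3NC the median was 0.15, with 7 of 9 positive, and all genes had -0.02. Of the genes wholly lower in overexpression than in 5NC, Ret had 0.33 (SE 0.25), Stra8 0.18 (SE 0.17), Sohlh1 0.24 (SE 0.25) and Etv5 0.15 (SE 0.11) in 5NC against 3NC, and none passed (edgeR adjusted p from 0.669 to 0.763). With each library left out these values ran from 0.18 (without 5NC replicate 1) to 0.59 (without 3NC replicate 2) for Ret, from 0.07 (without 3NC replicate 1 or 5NC replicate 1) to 0.35 (without 3NC replicate 2) for Stra8, from 0.05 (without 5NC replicate 1) to 0.35 (without 3NC replicate 1) for Sohlh1 and from 0.08 (without 3NC replicate 3) to 0.21 (without 3NC replicate 1) for Etv5. The comparison of overexpression with 5NC and that of 5NC with 3NC share the 5NC libraries, so these medians are not independent of each other. The set was chosen with earlier results of these data known, so setting it beside all genes is a description and not a test.

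**Figure D3:**
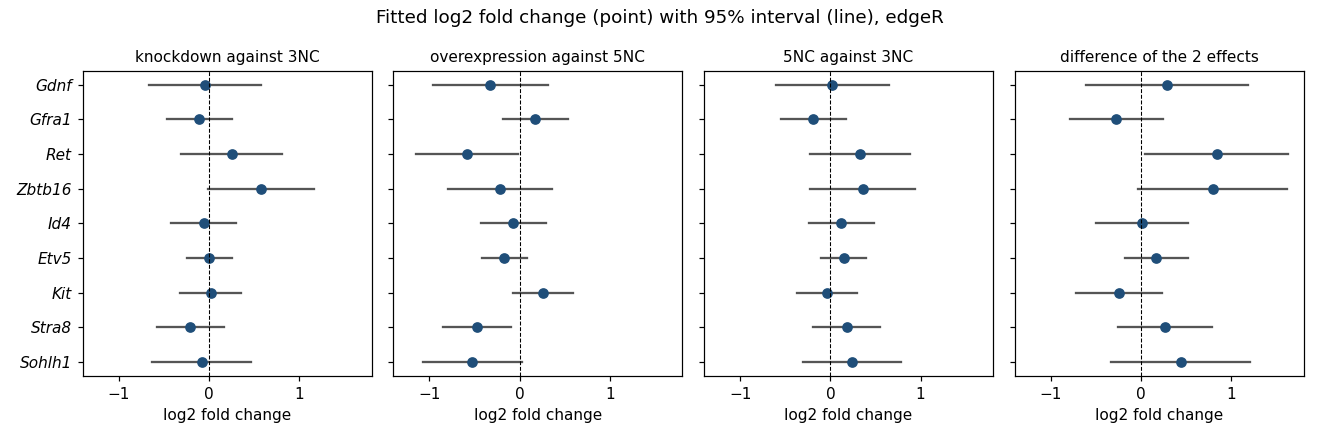
Fitted log2 fold change (points) of 9 genes with its 95% interval (lines) in 4 comparisons from edgeR; the dashed line marks 0. In overexpression against 5NC the intervals of Ret and Stra8 lie below 0, while no gene passed the adjusted threshold in any panel.

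Spermatid and epididymis markers were read beside the members, since the cell make-up of a sample sets the share of RNA from spermatogonia. The 6 round spermatid markers summed to 931 to 1111 CPM in overexpression and 796 to 875 CPM in 5NC. Their median log2 fold change was 0.31 and 6 of 6 values were positive, although none passed the adjusted test (smallest adjusted p = 0.156, for Catsper3, a sperm calcium channel subunit). In knockdown and 3NC they summed to 1004 to 1125 and 806 to 1169 CPM. The same 6 genes were all negative in 5NC against 3NC (median -0.27, Catsper3 at -0.39), where none passed, and all positive in knockdown against 3NC (median 0.08). The overexpression and vector control comparisons share the 5NC libraries. The 5 elongating spermatid markers summed to 12270 to 15451 CPM in overexpression and 11976 to 15161 CPM in 5NC, with a median of 0.02 and 3 of 5 positive. Of the epididymis markers, 3 were tested, and all were lower in overexpression than in 5NC (median -6.19). Spint3 alone passed, at -3.51 (SE 0.53, edgeR adjusted p = 0.0206), with 0.164 against 1.96 CPM. Its value in 5NC against 3NC was 1.35 (edgeR adjusted p = 0.311). The part of spermatids and epididymal cells in the values of Ret, Etv5, Stra8, Sohlh1 and Kit (0.26 in overexpression against 5NC) was not tested.

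The promoters of Stra8 and Sohlh1 are shown because these genes had the lowest fitted values of the differentiation genes in overexpression. Of the 10 genes, 8 had an entry in the RefSeq table of start sites (GRCm38.p6), with 11 start sites. In the 250 bases before each start, AGGTCA (the half-site bound by retinoic acid receptors, both strands) and CANNTG (the E-box bound by basic helix-loop-helix factors such as SOHLH1, both strands) were searched. Stra8 held AGGTCA at 2 places, from 194 and 38 bases before its start, and no CANNTG. At least 1 AGGTCA was found in 14.0% of 32851 such windows and at least 2 in 1.36%. Both places are given with 30 bases each (chr6:34920742-34920771 and chr6:34920898-34920927, plus strand), with AGGTCA in capitals. The window of 250 bases overlaps, at least in part, a stretch that GENCODE vM21 annotates as untranslated. Whether either AGGTCA lies in that stretch was not checked.
Stra8 site 1: gatggggtgaaaAGGTCAtcttgctccttc
Stra8 site 2: gcctggggtaccAGGTCAgttttttacctg

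Sohlh1 held CANNTG at 5 places and AGGTCA at 1 place, in a window of 250 bases (chr2:25847249-25847498, minus strand) with a GC content of 64.4%. At least 5 CANNTG were found in 1.15% of windows. The sequence is printed 5′ to 3′ and ends at the base before the start site, with CANNTG and AGGTCA in capitals. The AGGTCA overlaps the second E-box.
Sohlh1 promoter: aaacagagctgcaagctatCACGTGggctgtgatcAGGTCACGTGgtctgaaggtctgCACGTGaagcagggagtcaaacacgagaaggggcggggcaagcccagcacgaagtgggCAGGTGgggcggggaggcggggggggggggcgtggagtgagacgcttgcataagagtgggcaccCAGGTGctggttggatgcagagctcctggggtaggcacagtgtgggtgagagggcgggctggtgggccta

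Of the 5 E-boxes, 3 read CACGTG, a form searched for after the sequence had been seen. CACGTG was present at least once in 6.02% of windows and at least 3 times in 0.0609%. Kit, Id4 and Nanos2 had neither AGGTCA nor CANNTG in their windows. Gfra1 had CANNTG at 3 places (at least 3 in 12.2% of windows). Etv5 had CANNTG at 2 places before its first start site (at least 2 in 31.8% of windows) and neither motif before its other one. Gdnf had CANNTG at 1 place in each of its 2 windows (at least 1 in 66.2%) and AGGTCA at 1 place before its first start site. These matches describe the letters of the windows, and binding at them was not measured.

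Ret and Gdnf, the kinase and the ligand of the same pathway, also went together from library to library. Over 12 libraries, Pearson's r of their log2 CPM was 0.81 (permutation p = 0.00121, adjusted p = 0.0436 over 36 pairs of members) and Spearman's rho was 0.78 (permutation p = 0.00441, adjusted p = 0.159). It was the single pair of 36 that passed by r, and 0 pairs passed by rho. Without the 2 libraries farthest from the median of Gdnf, overexpression replicate 1 and 3NC replicate 2, r was 0.65. After the group means had been taken out, r was 0.86.

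The Gdnf and Ret relation lost its call in other settings. Without 3NC replicate 2 and knockdown replicate 1, r was 0.77 with a permutation adjusted p of 0.188 over the 36 pairs. With FPKM in place of CPM, r was 0.79 with a permutation adjusted p of 0.0731. Both genes had few reads, 16 to 35 for Gdnf and 22 to 52 for Ret, and share the depth and make-up of each library. Gfra1 and Etv5 had the lowest value of the 36, r = -0.70 (permutation adjusted p = 0.217) and rho = -0.57 (permutation adjusted p = 0.798), and r was -0.38 without the 2 farthest libraries.

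**Figure D4:**
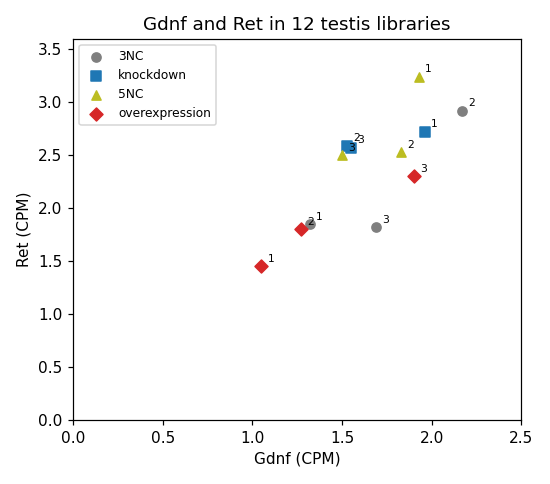
Ret against Gdnf, both in CPM, in 12 libraries with the replicate number beside each point. The points run from 1.05 CPM of Gdnf and 1.45 CPM of Ret in overexpression replicate 1 to 2.17 and 2.92 CPM in 3NC replicate 2.

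The genes most like 4 of the members over the 12 libraries were found by Pearson's r of log2 CPM among 16379 other tested genes, as a description. Stra8 was closest to Trim71 (r = 0.932), a RING-domain regulator of stem cells, then to Rab11fip4 (0.906) and Psmc1 (0.849). Kit was closest to Col8a2 (0.928), Sardh (0.902) and Kank4 (0.875), and Zbtb16 to Capns1 (0.898), Vps9d1 (0.881) and Washc1 (0.879). Gfra1 was closest to Vmn2r71 (0.919), Ttc39d (0.893) and Erich6b (0.882). The highest values among so many genes and 12 libraries are large by selection.

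Other genes of the same pathways were counted in 6 lists, which were chosen with earlier results of these data known. Of all genes in these lists, Spo11, the enzyme that makes the double-strand breaks of meiosis, was the single one that passed the adjusted test in overexpression against 5NC, and none passed in knockdown against 3NC. Spo11 was 44.3, 39.2 and 46.4 CPM in overexpression and 56.8, 62.3 and 66.0 CPM in 5NC, so the groups did not overlap. Its log2 fold change was -0.51 (SE 0.09, adjusted p = 0.0452). Leaving out 1 library at a time gave -0.57 to -0.44 with adjusted p from 0.0463 to 0.253, and the call held in 1 of 6 such fits (without 5NC replicate 1, lost without any other library). Against both vector controls the value was -0.28 (adjusted p = 0.369). In 3NC it was 43.2, 44.6 and 46.4 CPM and in knockdown 39.4, 42.3 and 39.8 CPM, so the 5NC libraries were the highest of the 4 groups. The value of 5NC against 3NC was 0.46 (SE 0.09, adjusted p = 0.0826). Rec8, a meiotic cohesin of the same list, had 0.52 (SE 0.15, adjusted p = 0.187) in overexpression against 5NC and the smallest p of the list in knockdown against 3NC, at 0.36 (SE 0.15, adjusted p = 0.764). Its value of 5NC against 3NC was -0.33 (SE 0.15, edgeR adjusted p = 0.463), with 44.7 CPM in 5NC and 56.2 CPM in 3NC.

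In the list of undifferentiated spermatogonia, 0 of 14 genes tested passed in either direction, and 12 of 14 had a negative value in overexpression against 5NC (median -0.23). Over all genes 48.2% of values were positive in this comparison. Of the other lists, positive values were held by 2 of 9 genes of differentiating spermatogonia, 9 of 15 of the GDNF family and RET signalling, 6 of 18 of retinoic acid supply and receptors, 9 of 13 of meiotic entry and 9 of 16 of the other niche factors. In the undifferentiated list, Egr3, an early growth response factor, had the smallest p and was one of the 2 genes with a positive value. Its log2 fold change was 0.79 (SE 0.17, adjusted p = 0.0987), with 34.4, 27.5 and 20.9 CPM in overexpression and 17.1, 14.5 and 16.3 CPM in 5NC. Egr3 also had the smallest p of that list in knockdown against 3NC, at 0.40 (SE 0.17, adjusted p = 0.764). In the list of differentiating spermatogonia, 0 of 9 passed, and the smallest p in overexpression against 5NC belonged to Dnmt3b, a de novo DNA methyltransferase, at -0.37 (SE 0.13, adjusted p = 0.311). In knockdown against 3NC the smallest p of that list was that of Dazl, a germ cell RNA-binding protein, at -0.28 (SE 0.19, adjusted p = 0.764).

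In the list of the GDNF family and RET signalling, 0 of 15 passed. The smallest p belonged to the neurturin receptor gene Gfra2 in overexpression against 5NC, at 0.38 (SE 0.17, adjusted p = 0.397), and to the kinase gene Yes1 in knockdown against 3NC, at -0.42 (SE 0.18, adjusted p = 0.764). Of 18 genes of retinoic acid supply and receptors 0 passed. The receptor gene Rxra had 1.12 (SE 0.28, adjusted p = 0.144) in overexpression against 5NC, with 26.6 ± 7.19 against 12.2 ± 1.53 CPM (SD, n = 3), and Crabp1, a retinoic acid binding protein, had 0.60 (SE 0.25, adjusted p = 0.764) in knockdown against 3NC. Of 16 other niche factors 0 passed, with the smallest p for the Notch ligand gene Jag1 in overexpression, at 0.29 (SE 0.13, adjusted p = 0.397), and for Wnt5a in knockdown, at -1.02 (SE 0.32, adjusted p = 0.764). For each of these genes with the smallest p in overexpression against 5NC, the value of 5NC against 3NC had the opposite sign, and the 2 comparisons share the 5NC libraries. That value was -0.76 for Rxra (20.6 CPM in 3NC and 26.3 CPM in knockdown), -0.50 for Egr3, -0.55 for Gfra2, 0.44 for Dnmt3b and -0.33 for Jag1, and none of them passed the adjusted test.

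**Figure D5:**
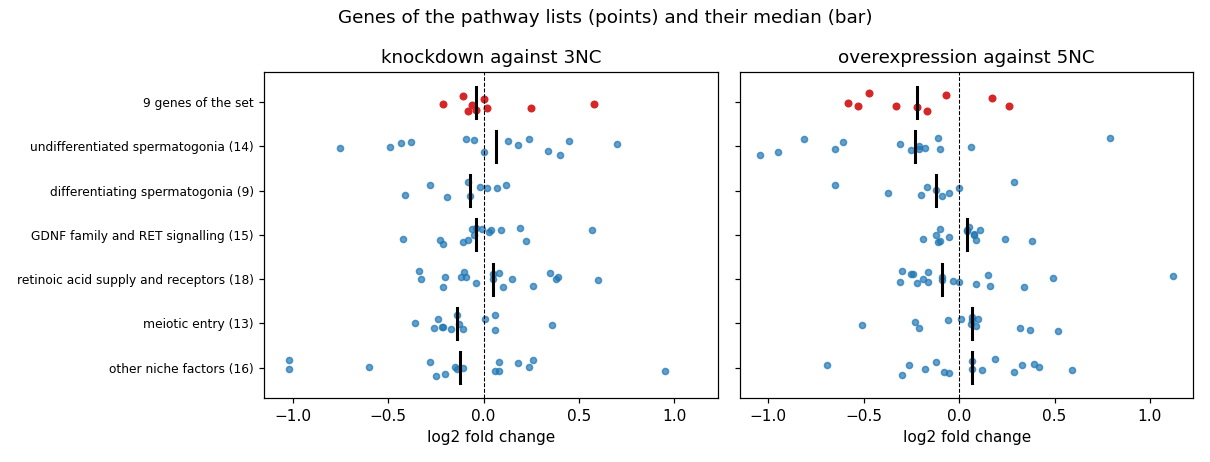
Log2 fold change of the genes of 6 pathway lists and of the 9 members (points; vertical position within a row is random) with the median of each list (bars), in knockdown against 3NC and overexpression against 5NC. In the right panel the medians of the members and of the undifferentiated list are -0.22 and -0.23, and points lie on both sides of 0 in every list.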

How the data were processed

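Gene expression was measured by RNA-seq in 12 F1 mouse testis libraries. SOAPaligner 2.20 was used for mapping in the study's methods, and mm10 is the build in the labels. The deposited table gives estimated counts per gene, not scaled (17.3% of genes hold fractions; the sharing of reads among isoforms is not stated), and FPKM that the authors computed (called RPKM in the methods). The 18 per-sample columns of other groups and 14 average columns were not used.

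After rounding of the estimated counts to whole numbers, genes were filtered with filterByExpr, scaled with TMM and tested in 1 fit of all 12 libraries with edgeR 4.0.16 (glmQLFit, glmQLFTest, R 4.3.3) and Benjamini-Hochberg adjustment at 0.05. The common coefficient of variation between libraries was 22.9%. The study's own test has no term for the spread between libraries and was replaced. Each lncRNA group was compared with the control of its own vector, the controls with each other, and the 2 effects with each other. Log2 CPM used a prior count of 2. Correlations had two-sided p from 100000 permutations. Intervals are at 95%, and floors are 3 reads per library.

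All members are named, with every pathway gene past the threshold and the gene of smallest p in each list and lncRNA comparison, and the 3 genes most like Gfra1, Zbtb16, Kit and Stra8. Members and lists were chosen with earlier results of these data known. Positions, start sites and promoter windows come from RefSeq tables of GRCm38, the build named mm10 in the labels; no windows were found for Ret and Zbtb16. Alternatives were RLE size factors, no filter, a replicate block, each library left out, only the libraries compared, DESeq2 1.42.0, limma 3.58.1 (limma-trend) on log2(FPKM + 0.1 or 1), counting error alone, both vector controls, and 3NC replicate 2 with knockdown replicate 1 left out. The test was tried on simulated counts first.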

Additional observations from a re-analysis of the deposited data

Results flagged for a closer look

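Ret was singled out because its libraries in the 2 lncRNA groups lay on opposite sides of their control means. All 3 knockdown libraries were above the 3NC mean and all 3 overexpression libraries below the 5NC mean. The difference of the 2 effects was 0.84 on the log2 scale (SE 0.36, edgeR adjusted p = 1.0), with a 95% interval of 0.04 to 1.63, so it did not pass the test of the difference over all genes. It ranged from 0.69 to 1.1 when each library was left out in turn. The single library 3NC replicate 2, at 2.92 CPM, was above every knockdown library. Opposite signs were not particular to Ret: Zbtb16 had 0.58 in knockdown, with all 3 libraries above the 3NC mean, and -0.22 in overexpression, with 2 of 3 below the 5NC mean, a difference of 0.80 (SE 0.38, adjusted p = 1.0), and Gfra1 had -0.11 and 0.17.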

How the results depend on the processing

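The 9 members stayed uncalled in edgeR with RLE size factors, without the filter, with the replicate block, with only the libraries compared and with each library left out, and in DESeq2 and limma-trend. With counting error alone, which ignores the spread between libraries, 1 member was called in knockdown against 3NC (Zbtb16), 5 in overexpression against 5NC (Ret, Etv5, Kit, Stra8 and Sohlh1) and 1 in 5NC against 3NC (Zbtb16), where the same test called 7337, 7263 and 7656 of all 16388 genes. The 1 correlated pair became 0 without 3NC replicate 2 and knockdown replicate 1 and 0 with log2(FPKM + 0.1). Ret was below the FPKM filter and had no value in 2 of the limma settings.

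Without 3NC replicate 2 and knockdown replicate 1 the log2 fold change turned in sign for Gdnf (0.03) and Stra8 (0.02) in knockdown against 3NC, for Id4 (-0.04) and Kit (0.05) in 5NC against 3NC, and for Id4 (-0.12) in the difference of effects. With 1 library left out at a time, signs also turned in knockdown against 3NC for Sohlh1 (-0.28 to 0.07), Gdnf (-0.19 to 0.16), Gfra1 (-0.20 to 0.05), Id4 (-0.22 to 0.14), Kit (-0.09 to 0.11) and Etv5 (-0.09 to 0.07, around -0.00), in 5NC against 3NC for Gdnf (-0.13 to 0.22), Id4 (-0.04 to 0.32) and Kit (-0.14 to 0.05), and in the difference of effects for Id4 (-0.15 to 0.20). The cause was not tested.

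Counts over all genes moved more. For overexpression against 5NC, 51 genes became 313 with DESeq2, 107 with only the libraries compared, 159 without 3NC replicate 2 and knockdown replicate 1, 82 with log2(FPKM + 0.1), 12 against both controls and 9 to 49 with a library left out. For knockdown against 3NC, 0 became 16 with DESeq2, 7 against both controls and up to 12 with a library left out. For 5NC against 3NC, 21 became 166 with DESeq2, 7 with only the libraries compared, 45 without those 2 libraries, 35 with unfiltered FPKM and 3 to 35 with a library left out. For the difference of effects, 4 became 42 with DESeq2, 9 with unfiltered FPKM and 2 to 10 with a library left out. Spo11 lost its call without the filter (adjusted p = 0.0614), with only the libraries compared (0.0736) and with the block (0.0811), while its log2 fold change was -0.50, -0.51 and -0.51 there. The call was kept with RLE size factors (edgeR adjusted p = 0.0487), DESeq2, limma-trend and counting error alone. It was also kept without 3NC replicate 2 and knockdown replicate 1. Of 17 alternatives in all, 9 lost it, among them fits with a library left out and the one with both vector controls. These Spo11 settings were added after its value had been seen.

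Replicate numbers were not taken to pair the samples. Deviations of 18 same-numbered pairs of libraries correlated from -0.64 to 0.39, and 5 were over 0.1. Pairs with different numbers were not set beside them, so a pairing by number could not be decided. With the replicate block 0 members were called in each comparison, and counts over all genes were 0 for knockdown against 3NC, 21 for overexpression against 5NC, 5 for 5NC against 3NC and 2 for the difference of effects. Groups held 3 libraries, and Gdnf and Ret had 16 to 52 reads per library. In overexpression against 5NC the SE was 0.25 to 0.29 (log2) for Gdnf, Ret, Zbtb16 and Sohlh1 and 0.11 to 0.17 for the other 5 genes.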
